A study of Mus musculus with 6 samples.

Results

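The beta chain of the T cell receptor is encoded by segments on mouse chromosome 6, and the 53 segments of that locus in the deposited table were examined in splenic CD4+ T cells. They were the rows whose gene name starts with Trbv (35 variable segments), Trbd (2 diversity segments), Trbj (14 joining segments) or Trbc (2 constant genes), out of 54532 genes in all. The 53 members span 667 kb on GRCm38, from Trbv1 (6:40891229-40891885, + strand) to Trbv31 (6:41557691-41558452, - strand), and their coordinates were those of GENCODE M21 for all 53.

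RNA came from 3 Ogt-KD mice (genotype Ogtfl/wt CD4-Cre: 1 floxed and 1 wild-type allele of Ogt, and a Cre transgene under Cd4 control) and 3 control mice (genotype wild type, with no Cre named). All 6 were C57BL/6 mice with experimental autoimmune encephalomyelitis (EAE), a T cell-driven disease of the brain and spinal cord, at the acute phase. The Cd4-driven Cre acts from the thymic stage that carries both CD4 and CD8, so its activity is not limited to CD4+ cells, and an effect of the Cre or of linked DNA cannot be told apart from one of Ogt. The age of the mice, the antigen used for immunisation and any pooling of animals are not stated in the labels. Nor do the labels say how the cells were purified.

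A beta chain is assembled in the thymus by joining 1 V, 1 D and 1 J segment, and the joined exon is spliced to Trbc1 or Trbc2. Each clone of T cells carries its own joint, so the share of reads on a V segment in bulk RNA reflects how many cells use it, weighted by how much receptor RNA each cell makes. In bulk RNA, fewer cells of a type and less RNA per cell cannot be told apart. V segments encode 2 of the loops that touch peptide and MHC, and expansion of a clone raises the share of its V and J segments.

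Total counts ran from 18127031 to 25683453 per library. Ogt, the targeted gene, had 661.9, 598.8 and 458.6 CPM (counts scaled to library size) in Ogt-KD libraries 1, 2 and 3, against 599.2, 627.9 and 562.4 in control libraries, so the groups overlapped; these counts may include exons that a deletion leaves in place and do not measure it. Cd4 was abundant (738.5 to 902.7 CPM in Ogt-KD and 762.3 to 856.2 CPM in control libraries), while Cd8a stood at 1.88 to 4.56 and 1.46 to 4.35 CPM. Along the first principal component of all genes (44.8% of the variance), Ogt-KD replicates 1 and 2 stood at 1 end and the replicate 3 libraries of both groups at the other. The summed macrophage markers (Adgre1, Csf1r, Vcam1 and Spic) were highest in the replicate 3 libraries, at 1910 CPM in Ogt-KD replicate 3 and 2174 CPM in control replicate 3, against 336 and 383 CPM in the other Ogt-KD and 825 and 871 CPM in the other control libraries.

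The 3′ ends of V segments code for the start of CDR3, the loop formed by the joint. The last 60 bases of the transcripts are shown for the 5 V segments with the most reads and for 3 more whose shares separated the groups, as given in GENCODE M21 (GRCm38, chromosome 6, 5′ to 3′ on the transcribed strand). Capitals mark TGTGCCAGC, the stretch of Trbv13-2 that begins with the codon of the conserved cysteine.
Trbv13-2: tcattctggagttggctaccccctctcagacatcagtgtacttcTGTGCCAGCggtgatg
Trbv1: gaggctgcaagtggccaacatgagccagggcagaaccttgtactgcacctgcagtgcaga
Trbv3: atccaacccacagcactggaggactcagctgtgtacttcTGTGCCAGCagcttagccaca
Trbv16: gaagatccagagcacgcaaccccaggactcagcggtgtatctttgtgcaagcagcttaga
Trbv31: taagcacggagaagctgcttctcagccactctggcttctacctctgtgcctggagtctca
Trbv12-1: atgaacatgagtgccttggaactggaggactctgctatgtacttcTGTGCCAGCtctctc
Trbv17: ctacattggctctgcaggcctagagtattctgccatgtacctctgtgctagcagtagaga
Trbv23: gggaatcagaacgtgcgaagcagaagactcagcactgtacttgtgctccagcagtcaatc

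These 9 letters, searched on the coding strand, occurred in the last 25 bases of 13 of the 22 V genes and 4 of the 13 V pseudogenes, and in the last 25 bases of 0.0240% of all GENCODE M21 transcripts. A match describes the sequence only. Segments of 1 subgroup are close copies. Trbv13-2 and Trbv13-3 were 90.6% identical with a longest shared run of 50 bases, and Trbv12-1 and Trbv12-2 were 88.3% identical with a shared run of 44 bases. Outside the subgroups 12 and 13, the longest run that a tested V segment shared with any other was 11 to 23 bases, so reads are less likely to be split between them.

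V segment use was broad and similar in rank in all libraries. Trbv reads numbered 7090, 6047 and 11564 in the Ogt-KD libraries, against 9682, 8685 and 7772 in the control libraries. Of 35 V segments, 22 passed the filter on low counts, 21 of them V genes and 1, Trbv24, a pseudogene; 19 had at least 20 counts in every library. The other 13 were the V gene Trbv21, with 3 to 11 counts, and 12 pseudogenes with at most 13 counts in any library, 7 of which had none in all 6. A count of 0 allows a share of up to 0.0259% to 0.0496% of Trbv counts, depending on the library, for counting error only.

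**Figure D1:**
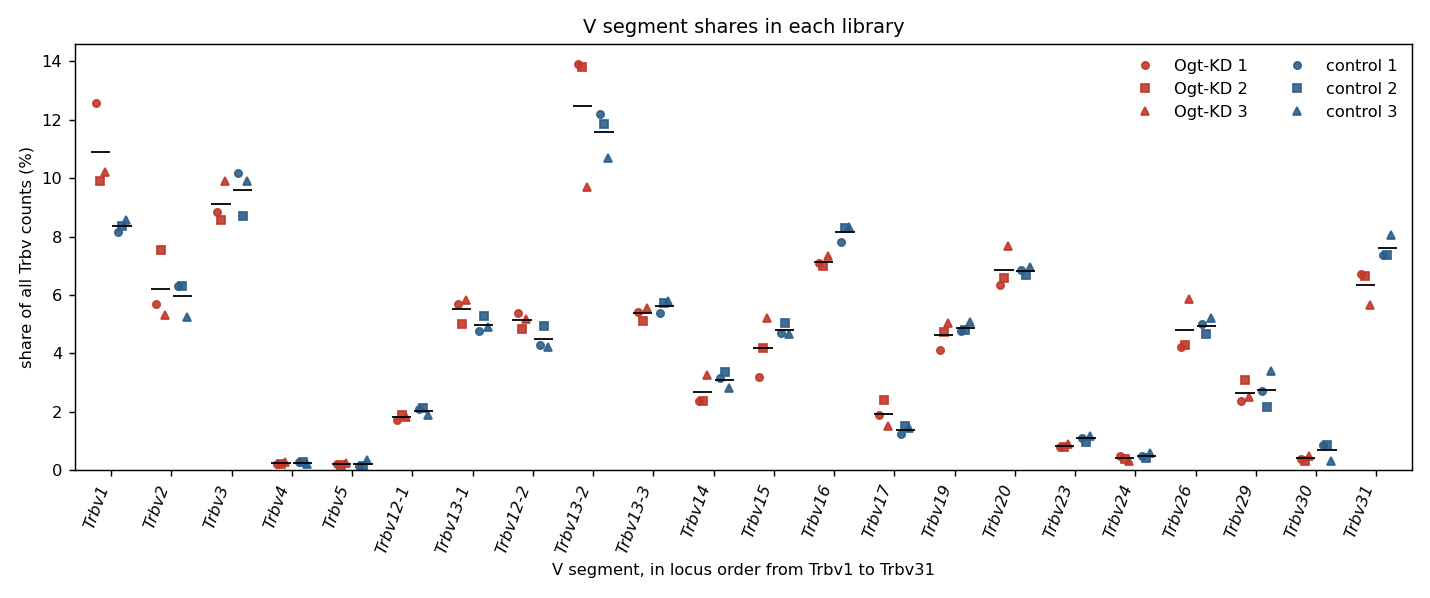
Share of all Trbv counts (percent, y axis) taken by each of the 22 tested V segments (x axis, in locus order), with 1 point per library, Ogt-KD in red at the left of each pair and control in blue at the right, and a black line at each group mean. Trbv13-2 had the largest mean share, and Trbv1 was higher in the 3 Ogt-KD libraries than in the 3 control libraries.

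Trbv13-2, a member of the subgroup known as Vbeta8 in the older nomenclature, took the largest mean share of Trbv counts. Its share was 13.9%, 13.8% and 9.70% in Ogt-KD libraries 1, 2 and 3, against 12.2%, 11.9% and 10.7% in control libraries, so the groups overlapped and replicate 3 was lowest in both. Means were 12.5 ± 2.39% in Ogt-KD and 11.6 ± 0.801% in control libraries (SD, n = 3 each). The Trbv13 subgroup, with 3 segments, held 25.04%, 23.9% and 21.1% of Trbv counts in the Ogt-KD libraries and 22.4%, 22.9% and 21.4% in the control libraries. The Vbeta8 family is known from the response to myelin basic protein in other mouse strains.

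By count, Trbv1 and Trbv3 came next, and their ranges over the 6 libraries overlapped each other and that of Trbv13-2. Trbv16, Trbv31 and Trbv20 followed at 5.66% to 8.31%, with overlapping ranges, then Trbv2, Trbv13-3, Trbv13-1, Trbv26, Trbv12-2 and Trbv19. The 12 together took 86.1%, 84.0% and 83.3% of Trbv counts in Ogt-KD libraries, against 83.1%, 83.0% and 82.9% in control libraries, without overlap. Counts favour long segments, so the shares were also taken from the authors' FPKM, which is per length. On that scale Trbv13-2 remained first, at 14.4% in Ogt-KD and 13.3% in control libraries, and Trbv20 moved to the fourth place with 8.02% and 7.99%.

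No V, D, J or constant segment passed the test for a difference in level. With edgeR's quasi-likelihood test over 16075 genes, 0 of the 40 members that passed the filter had an adjusted p under 0.05, where 0.00622% of all genes tested did (1 gene). At an unadjusted p under 0.05 there was 1 member, Trbv31, where 7.52% of all genes were under it. DESeq2 and limma-voom also called 0 members, with 1 each at an unadjusted p under 0.05. With the replicate number as a block, 0 members passed, against 0.292% of all genes (47 genes), and 3 members (Trbv31, Trbv16 and Trbv23, all lower in Ogt-KD libraries) were under an unadjusted 0.05, against 13.2% of all genes. A value for 45 members stood in the authors' deposited table, where 0 had an adjusted p under 0.05 and the smallest was 0.515, for Trbv31. The 22 Trbv segments tested had a median log2 fold change of -0.20, with 18 below 0 and 4 above, beside a median of -0.005 over all genes tested.

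Shares separate the mix of V segments from the amount of receptor RNA in a library. Among the 19 V segments with at least 20 counts in each library, the shares of 6 did not overlap between the groups, 2 higher and 4 lower in all 3 Ogt-KD libraries. Measured in the same way for the alpha chain, 4 of 43 Trav segments did not overlap, 9.3%. Trav counts were fewer, at 3165 to 4716 a library against 6047 to 11564 Trbv counts, and spread over more segments. Counting error can blur group differences more for Trav, so the comparison is not like for like. With 3 libraries in each group the exact two-sided permutation test cannot give a p below 0.10. Groups that do not overlap always give 0.10, so the test adds nothing for these 6. Shares of 1 total are tied to one another, since a gain of Trbv1 lowers the shares of all other segments.

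Trbv1 (Vbeta2), the V segment at the 5′ end of the locus, showed the largest difference. It held 12.6%, 9.91% and 10.2% of Trbv counts in Ogt-KD libraries, against 8.17%, 8.37% and 8.56% in control libraries. The lowest Ogt-KD value lay above the highest control value, and Ogt-KD replicate 1 stood above the other 5 libraries. The exact binomial 95% interval was 11.8% to 13.4% in Ogt-KD replicate 1 and 9.16% to 10.7% in Ogt-KD replicate 2, against 7.94% to 9.20% in control replicate 3. The mean share was 2.53 percentage points higher in Ogt-KD libraries (10.9 ± 1.47% in Ogt-KD and 8.37 ± 0.193% in control, SD, n = 3 each). Leaving out 1 library at a time, the difference ran from 1.69 points (without Ogt-KD replicate 1) to 3.03 points.

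In level Trbv1 did not separate the groups. It stood at 43.7, 30.4 and 47.2 CPM in Ogt-KD and at 36.1, 29.3 and 37.5 CPM in control libraries (edgeR log2 fold change 0.24 with SE 0.18, adjusted p = 0.868). Trbv1 is used by some natural killer T (NKT) cells, whose factor Zbtb16 had 2.30, 2.13 and 3.32 CPM in Ogt-KD libraries, against 0.731, 1.37 and 0.845 CPM in control libraries (edgeR adjusted p = 0.517). The 4 genes listed as NKT and MAIT markers (Zbtb16, Klrb1c, Klrk1 and Cd244a) summed to 31.3, 40.4 and 43.1 CPM in Ogt-KD and 24.3, 27.7 and 38.4 CPM in control libraries, with overlap. Cd244a was the largest part in every library, at 15.9, 25.2 and 16.9 CPM in Ogt-KD and 9.86, 13.0 and 21.0 CPM in control libraries. The sum is therefore not a measure of NKT cells alone. The Vbeta7 and Vbeta8 segments that NKT cells also use, Trbv29 and the Trbv13 subgroup, overlapped between groups. Trbv29 held 2.36%, 3.09% and 2.499% in Ogt-KD and 2.72%, 2.15% and 3.38% in control libraries. The part of NKT cells in the Trbv1 share was not tested.

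Trbv17 (Vbeta9) was the other segment with a higher share. Its share was 1.89%, 2.40% and 1.51% in Ogt-KD libraries, against 1.23%, 1.497% and 1.43% in control libraries. Ogt-KD replicate 3 and control replicate 2 almost met, at 175 of 11564 and 130 of 8685 Trbv counts, and their binomial intervals (1.30% to 1.75% and 1.25% to 1.77%) overlapped. It was the 1 V segment whose CPM also did not overlap, at 6.56, 7.35 and 6.99 in Ogt-KD and 5.44, 5.24 and 6.25 in control libraries (edgeR log2 fold change 0.31 with SE 0.17, adjusted p = 0.741). Over all genes tested, CPM did not overlap for 13.3%.

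Trbv31 (Vbeta14), the V segment at the 3′ end, which lies beyond Trbc2 in the opposite orientation and joins by inversion, had a lower share. It held 6.71%, 6.66% and 5.66% of Trbv counts in Ogt-KD libraries, against 7.37%, 7.36% and 8.04% in control libraries. Every Ogt-KD value lay below every control value, and the 2 replicate 3 libraries were the extremes. Binomial intervals overlapped between Ogt-KD replicate 1 (6.14% to 7.32%) and control replicate 2 (6.82% to 7.93%). Those of the replicate 3 libraries did not, at 5.24% to 6.09% in Ogt-KD and 7.45% to 8.67% in control. The mean share was 6.34 ± 0.597% in Ogt-KD and 7.59 ± 0.390% in control libraries (SD, n = 3 each). In level it had 23.3, 20.4 and 26.1 CPM in Ogt-KD and 32.6, 25.7 and 35.2 CPM in control libraries (edgeR log2 fold change -0.42 with SE 0.15, adjusted p = 0.624).

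Trbv16 (Vbeta11), which forms the beta chain of a widely used transgenic receptor for myelin oligodendrocyte glycoprotein, was lower in share by a small amount. The values were 7.09%, 6.995% and 7.32% in Ogt-KD libraries, against 7.83%, 8.29% and 8.31% in control libraries. The shares did not overlap between the groups. The binomial intervals of Ogt-KD replicate 3 (6.86% to 7.81%) and control replicate 1 (7.30% to 8.38%) did overlap. Mean shares were 7.14 ± 0.169% in Ogt-KD and 8.14 ± 0.273% in control libraries (SD, n = 3 each). In level it had 24.6, 21.4 and 33.8 CPM in Ogt-KD and 34.6, 28.997 and 36.4 CPM in control libraries (edgeR log2 fold change -0.32 with SE 0.19, adjusted p = 0.764).

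Trbv12-1 and Trbv23 were also lower in share in all 3 Ogt-KD libraries. Trbv12-1 (Vbeta5) held 1.72%, 1.90% and 1.82% in Ogt-KD and 2.08%, 2.13% and 1.90% in control libraries. Ogt-KD replicate 2 and control replicate 3 thus differed by less than 0.01 points, and by FPKM shares the groups overlapped. Trbv23 (Vbeta20) held 0.804%, 0.794% and 0.891% in Ogt-KD and 1.12%, 0.956% and 1.18% in control libraries, from 48 to 108 counts a library. Its binomial intervals overlapped between Ogt-KD replicate 3 (0.728% to 1.08%) and control replicate 2 (0.762% to 1.18%). Trbv23 had the lowest ratio of mean shares among segments with at least 20 counts in each library, -0.39 on the log2 scale. Trbv17 had the highest, 0.48. Trbv12-2, the close copy of Trbv12-1, went the other way in mean share (5.14% in Ogt-KD and 4.48% in control libraries) with overlapping groups.

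In a fit over all genes that scales each library by its Trbv total, so that a fold change is that of the share, 0 members passed. The smallest adjusted p among members was 0.973, and the smallest unadjusted p 0.0631, for Trbv1 (edgeR, log2 fold change 0.38, SE 0.18). Of the 6 segments that separated the groups, 5 lack TGTGCCAGC at the 3′ end (all but Trbv12-1), whereas 11 of the other 13 carry it. This was noticed after the shares were known, and no test was made of it. Trbv16 and Trbv17 depart from TGTGCCAGC only at the last base of its alanine codon, which leaves the amino acids unchanged. Trbv29, among the other 13, does likewise.

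**Figure D2:**
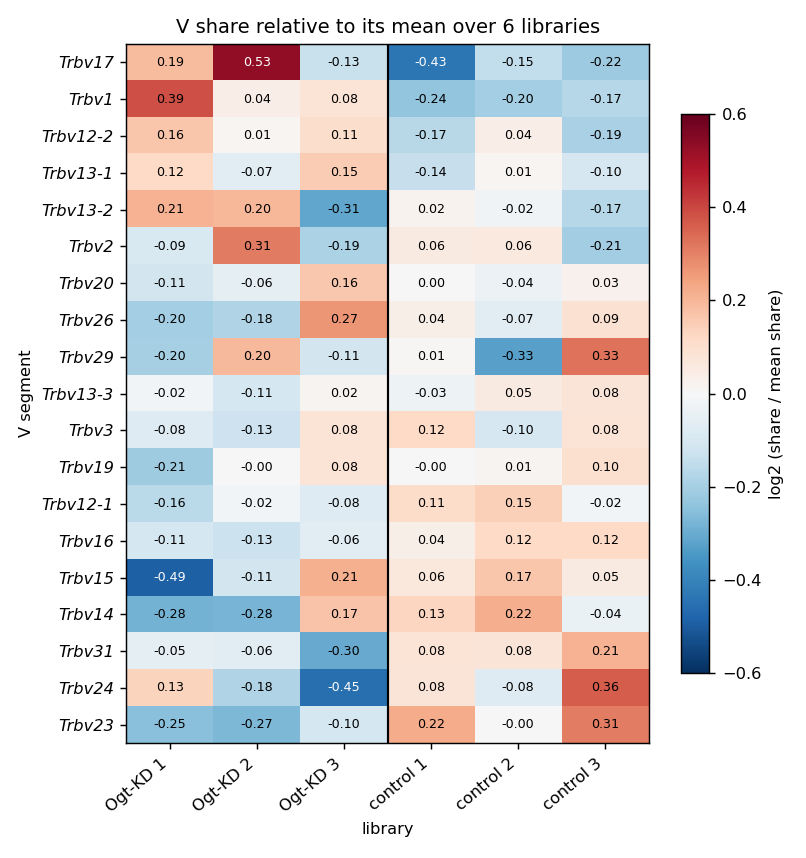
Share of Trbv counts of each of 19 V segments (rows, ordered by the ratio of the group means) in each library (columns, Ogt-KD left of the line and control right of it), as the log2 ratio to the segment's mean share over the 6 libraries; red is above and blue below the mean. Trbv1 was above its mean in the 3 Ogt-KD libraries and below it in the 3 control libraries, and Trbv16 and Trbv31 the reverse, while Trbv15 and Trbv26 differed among the Ogt-KD libraries themselves.

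The other 13 V segments with at least 20 counts overlapped between the groups, with log2 ratios of mean shares from -0.28 to 0.20. Several differed more between libraries of 1 group than between the groups. Trbv15 (Vbeta12) held 3.20%, 4.17% and 5.21% in Ogt-KD libraries, against 4.71%, 5.05% and 4.67% in control libraries. Trbv2 (Vbeta4) held 7.54% in Ogt-KD replicate 2, against 5.25% to 6.32% in the other 5 libraries. Trbv3 held 8.86%, 8.57% and 9.91% in Ogt-KD and 10.2%, 8.70% and 9.89% in control libraries, and Trbv20 (Vbeta15) 6.35%, 6.57% and 7.67% against 6.85%, 6.68% and 6.97%. Trbv14 (Vbeta13) held 2.37%, 2.38% and 3.25% in Ogt-KD and 3.15%, 3.35% and 2.805% in control libraries.

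Among the remaining segments of the most used 12, no group stood apart. Trbv13-3 held 5.43%, 5.11% and 5.57% in Ogt-KD and 5.38%, 5.71% and 5.80% in control libraries. Trbv13-1 held 5.70%, 5.01% and 5.83% in Ogt-KD and 4.77%, 5.28% and 4.90% in control libraries. Trbv26 (Vbeta3) held 4.23%, 4.30% and 5.86% in Ogt-KD and 4.999%, 4.65% and 5.20% in control libraries, and Trbv19 (Vbeta6) 4.10%, 4.75% and 5.03% against 4.75%, 4.80% and 5.08%. Trbv30, chosen after its values were seen, fell just short of the count minimum with 28, 19 and 56 counts in Ogt-KD and 82, 74 and 25 counts in control libraries, where control replicate 3 lay within the Ogt-KD range.

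V usage varied more among the Ogt-KD than among the control libraries in 2 of 3 pairs. The percentage of Trbv counts that would have to change segment to make 2 libraries alike was 5.24%, 8.87% and 8.99% for the 3 pairs of Ogt-KD libraries, against 3.17%, 4.09% and 5.25% for the 3 control pairs. The 9 pairs of an Ogt-KD with a control library lay at 6.33% to 10.3%, with a median of 7.19%. The pairs of Ogt-KD replicate 3 with the other Ogt-KD libraries were as far apart as pairs across groups, while Ogt-KD replicates 1 and 2 were as close as the farthest control pair (5.24% and 5.25%). The pairs share libraries, and no test was made of this spread. Chi-squared per degree of freedom, which is 1 on average for counting error alone, was 3.22 to 9.55 within Ogt-KD, 5.07 to 9.45 across groups and 1.51 to 4.34 within control libraries. Spearman's rank correlation of V shares across segments was 0.969 or more in every pair of libraries, a description only, since the segments are not independent.

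**Figure D3:**
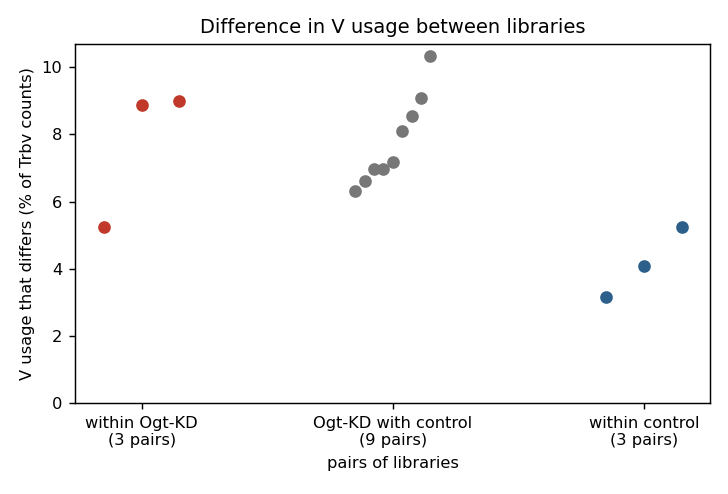
Percentage of Trbv counts that would have to change V segment to make 2 libraries alike (y axis) for pairs of libraries (x axis: 3 pairs within Ogt-KD, 9 pairs of Ogt-KD with control, 3 pairs within control), with 1 point per pair, sorted within each class. Control pairs lay at 3.17% to 5.25% and pairs across groups at 6.33% to 10.3%, and 2 of the 3 Ogt-KD pairs lay within the range of the pairs across groups.

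Evenness of V use overlapped between the groups. The effective number of V segments, the exponential of the Shannon entropy of the shares, was 15.9, 16.3 and 16.8 in Ogt-KD libraries, against 16.7, 16.8 and 16.9 in control libraries. The groups overlapped through Ogt-KD replicate 3. Of 35 V segments, 26 had at least 1 count in each Ogt-KD library, against 25, 26 and 24 in control libraries. V pseudogenes took 0.635%, 0.480% and 0.441% of Trbv counts in Ogt-KD libraries and 0.547%, 0.507% and 0.746% in control libraries, most of them from Trbv24.

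The diversity segments are so short that few reads fall on them. Trbd1 and Trbd2 are printed whole from GENCODE M21 (GRCm38, chromosome 6, + strand, 6:41533201-41533212 and 6:41542163-41542176).
Trbd1: gggacagggggc
Trbd2: gggactgggggggc

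Trbd1 had 82, 75 and 129 counts in Ogt-KD libraries, against 123, 101 and 104 counts in control libraries. Trbd2 had 25, 27 and 14 counts in Ogt-KD and 15, 28 and 13 counts in control libraries. Neither separated the groups (edgeR log2 fold changes -0.26, SE 0.23, and 0.28, SE 0.42; adjusted p = 0.913 and 0.962).

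The 14 joining segments lie in the clusters Trbj1, upstream of Trbc1, and Trbj2, upstream of Trbc2. Their receptor transcripts are shown where they had the most reads (the first 4) or where their shares separated the groups (the last 4 and Trbj2-7), from GENCODE M21 (GRCm38, chromosome 6, + strand). For Trbj1-3 this transcript holds the first 50 of the gene's 54 bases. Capitals mark matches to TTNGGNNNNGG on the coding strand, a codon form of the phenylalanine-glycine-any-glycine motif of functional J segments.
Trbj2-7: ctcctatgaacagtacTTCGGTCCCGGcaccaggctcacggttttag
Trbj1-5: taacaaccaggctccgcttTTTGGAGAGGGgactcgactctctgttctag
Trbj1-3: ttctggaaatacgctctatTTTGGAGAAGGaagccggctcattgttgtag
Trbj1-2: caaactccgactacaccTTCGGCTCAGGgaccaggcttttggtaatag
Trbj1-6: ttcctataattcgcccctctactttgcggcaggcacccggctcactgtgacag
Trbj1-7: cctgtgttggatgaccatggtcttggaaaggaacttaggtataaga
Trbj2-5: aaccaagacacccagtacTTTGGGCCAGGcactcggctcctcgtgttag
Trbj2-6: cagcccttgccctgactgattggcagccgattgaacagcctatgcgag

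The motif was found in 11 of 14 J segments and in the first 50 bases of 1.22% of all GENCODE M21 transcripts. The 3 without it were Trbj1-6, Trbj1-7 and Trbj2-6. The annotation calls Trbj1-6 and Trbj1-7 J genes and Trbj2-6 a pseudogene. Neither such a label nor the motif search shows by itself whether a segment is functional, and function was not tested. Trbj2-6 nevertheless took 5.66%, 4.99% and 5.84% of Trbj counts in Ogt-KD libraries, against 6.31%, 6.85% and 7.04% in control libraries. J shares here are shares of reads, pseudogene included, and not of functional receptors.

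Of the 13 J segments with at least 20 counts in each library, 5 did not overlap between the groups in share. The exact two-sided permutation p is then 0.10 for each, fixed by the lack of overlap. Measured in the same way for the alpha chain, 5 of 31 Traj segments did not overlap, 16.1%. Trbj2-7, the segment with the most reads, held 18.5%, 18.1% and 17.8% in Ogt-KD and 17.4%, 17.5% and 16.1% in control libraries. Trbj1-6 was the other with a higher share, 4.65%, 5.03% and 4.598% in Ogt-KD and 4.27%, 4.14% and 3.61% in control libraries. Lower shares were seen for Trbj2-6, for Trbj1-7 (3.46%, 3.54% and 3.399% in Ogt-KD and 3.76%, 4.38% and 4.35% in control libraries) and for Trbj2-5 (4.90%, 3.89% and 5.04% in Ogt-KD and 6.09%, 5.38% and 5.23% in control libraries).

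No J segment passed in level. The 14 log2 fold changes ran from -0.38 for Trbj2-6 (SE 0.18, edgeR adjusted p = 0.685) to 0.16 for Trbj1-6. CPM did not overlap between groups for 2 of the 14, Trbj1-7 and Trbj2-6, both lower in Ogt-KD libraries, a share close to the 13.3% of all genes tested. The other leading segments overlapped in share. Trbj1-5 held 15.1%, 15.4% and 12.8% in Ogt-KD and 14.3%, 13.7% and 13.4% in control libraries, Trbj1-3 11.8%, 11.2% and 9.64% against 10.6%, 11.1% and 10.6%, and Trbj1-2 9.34%, 9.63% and 10.7% against 10.8%, 9.22% and 11.9%. Trbj2-1 was highest in Ogt-KD replicate 3, at 6.56%, against 3.75% to 5.19% in the other 5 libraries. The Trbj1 cluster as a whole held 54.3%, 55.3% and 50.5% of Trbj counts in Ogt-KD libraries, against 53.4%, 52.7% and 52.9% in control libraries.

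**Figure D4:**
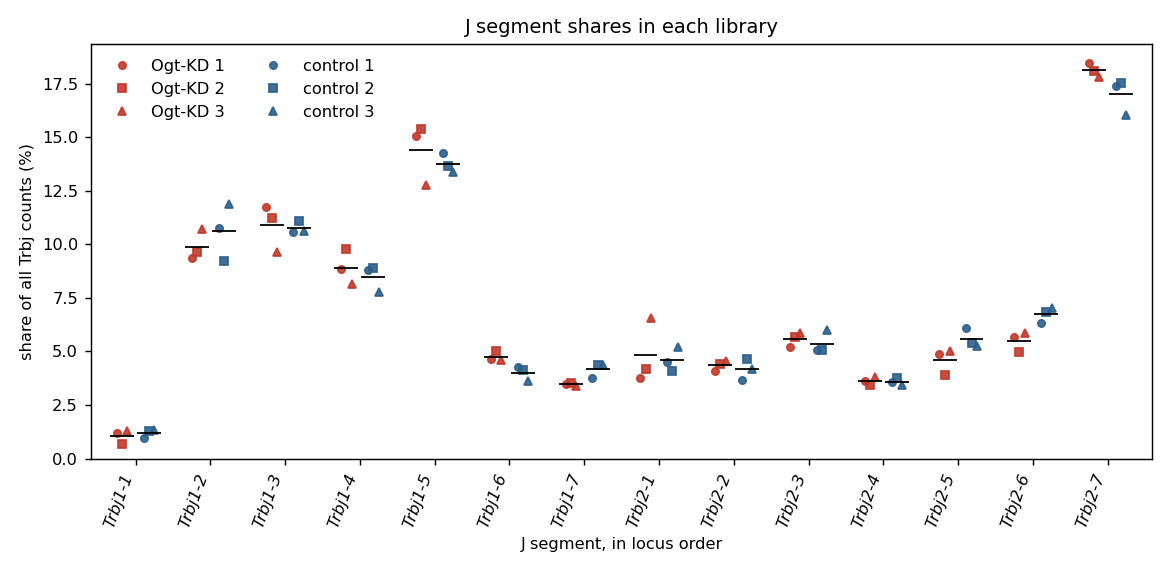
Share of all Trbj counts (percent, y axis) taken by each of the 14 J segments (x axis, in locus order), with 1 point per library, Ogt-KD in red at the left of each pair and control in blue at the right, and a black line at each group mean. Trbj2-7 and Trbj1-5 had the largest shares, and Trbj2-6 and Trbj1-7 were lower in the 3 Ogt-KD libraries than in the 3 control libraries.

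The constant genes Trbc1 and Trbc2 are near copies, and a 51-base stretch of each (bases 235 to 285 of the GENCODE M21 transcript, GRCm38 chromosome 6) shows the first base in which they differ, C260A counted from the transcript's first base, Trbc1 first.
Trbc1: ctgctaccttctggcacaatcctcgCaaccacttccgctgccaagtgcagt
Trbc2: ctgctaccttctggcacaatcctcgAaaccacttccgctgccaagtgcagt

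The 2 transcripts were 95.3% identical over 512 aligned bases, with a shared run of 259 bases. Of 24 differences, 4 lay in the first 400 bases. The gene length given for Trbc1 is 749 bases, so not all of it was compared. How the counting assigned reads from the matching parts to one or the other is uncertain. Trbc1 (6:41538218-41539881) had 322.5, 300.3 and 473.5 CPM in Ogt-KD libraries, against 452.8, 321.7 and 454.1 CPM in control libraries. Trbc2 (6:41546730-41548352) had 677.7, 613.1 and 763.2 CPM in Ogt-KD and 796.9, 629.9 and 768.0 CPM in control libraries. Neither passed the test (edgeR log2 fold changes -0.16, SE 0.21, and -0.10, SE 0.14; adjusted p = 0.952 and 0.960). Trbc1 took 32.2%, 32.9% and 38.3% of Trbc counts in Ogt-KD libraries, against 36.2%, 33.8% and 37.2% in control libraries.

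The groups overlapped in the amount of beta chain RNA. Summed Trbv CPM was 347, 307 and 462 in Ogt-KD libraries, against 442, 350 and 438 in control libraries, means of 372 ± 80.7 and 410 ± 52.1 (SD, n = 3 each). Ogt-KD was below control in replicates 1 and 2 and above it in replicate 3. Without Ogt-KD replicate 3, 13 members were lower at an unadjusted p under 0.05 (12 V segments and Trbc1), where 8.78% of all genes were, 0 passed adjustment, and the median log2 fold change of Trbv segments was -0.47. Without Ogt-KD replicate 2 it was -0.05, without Ogt-KD replicate 1 -0.12 and without control replicate 2 -0.32. The 5 dendritic cell markers (Flt3, Zbtb46, Xcr1, Itgax and H2-Ab1) summed to 554, 796 and 266 CPM in Ogt-KD and 310, 313 and 137 CPM in control libraries. The part of dendritic cells and macrophages in the Trbv level was not tested.

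J segments did not follow V segments across libraries. Summed Trbj CPM was 136, 116 and 99.9 in Ogt-KD libraries, against 125, 120 and 128 in control libraries, so that Ogt-KD replicate 3 had the highest V and the lowest J level of the 6. There were 39.1, 37.8 and 21.6 Trbj counts per 100 Trbv counts in Ogt-KD libraries, against 28.3, 34.5 and 29.3 in control libraries. V followed the constant genes more closely, with 34.7, 33.6 and 37.4 Trbv counts per 100 Trbc counts in Ogt-KD and 35.4, 36.8 and 35.8 in control libraries.

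**Figure D5:**
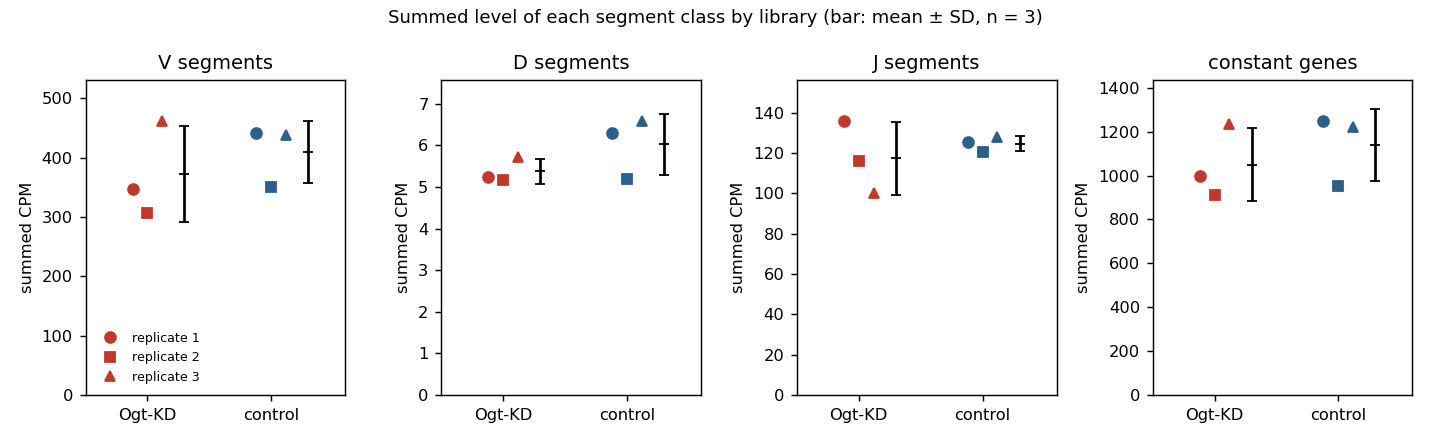
Summed CPM (y axis, from 0) of the V, D and J segments and the constant genes in each library, with Ogt-KD in red at the left and control in blue at the right of each panel, marker shapes for replicates 1 (circle), 2 (square) and 3 (triangle), and bars for the mean and SD of 3 libraries. V and constant RNA were highest in Ogt-KD replicate 3 among the Ogt-KD libraries, where J RNA was lowest, and the groups overlapped in every panel.

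Among the other chains of the receptor complex and its proximal kinases, no gene passed. Of 9 tested genes (Trac, Cd3d, Cd3e, Cd3g, Cd247, Cd4, Cd8a, Lck and Zap70), 4 had a log2 fold change above 0 and 5 below, with a median of -0.09. Trac, the constant gene of the alpha chain that pairs with the beta chain, had 437.0, 401.1 and 412.1 CPM in Ogt-KD and 490.0, 454.9 and 461.3 CPM in control libraries, without overlap (edgeR log2 fold change -0.17 with SE 0.09, adjusted p = 0.741). Lck, the kinase that starts receptor signalling, was likewise without overlap, at 834.7, 758.6 and 695.9 CPM in Ogt-KD and 987.3, 874.6 and 889.0 CPM in control libraries (edgeR log2 fold change -0.27 with SE 0.12, adjusted p = 0.669). The other listed genes overlapped between groups, where CPM did not overlap for 13.3% of all genes tested. Cd247, the zeta chain, had 223, 213 and 255 CPM in Ogt-KD and 288, 254 and 264 CPM in control libraries.

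CD3 subunits, which carry the receptor to the surface, overlapped between groups. Log2 fold changes were -0.09 for Cd3d, 0.04 for Cd3e and -0.11 for Cd3g. Trbv counts per 100 counts of these 3 genes were 33.0, 31.2 and 40.5 in Ogt-KD libraries, against 36.9, 33.6 and 40.4 in control libraries, highest in replicate 3 of both groups.

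The recombinase genes were at or near 0, and no gene that rearranges the locus passed. Rag2, a subunit of the recombinase, had 0 counts in all 6 libraries, and Rag1, its partner, at most 0.101 CPM in Ogt-KD and 0.0403 CPM in control libraries. Ptcra, which pairs with the new beta chain in thymocytes, was also below the filter. Of 8 tested genes of joining and end repair, 5 had a log2 fold change above 0 and 3 below, and 0 passed (median 0.02). Dntt, which adds bases at the joint, had 3.72, 4.06 and 4.20 CPM in Ogt-KD and 7.08, 3.42 and 4.22 CPM in control libraries.

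The marker lists of CD8 T, gamma delta T, NKT and MAIT, dendritic, macrophage and neutrophil cells had 0 members passing, in edgeR over all genes. CD8 T cell markers (Cd8a and Cd8b1) summed to 12.9 to 17.1 CPM in Ogt-KD and 13.3 to 16.5 CPM in control libraries. Markers of gamma delta T cells, which carry another receptor and can hold rearranged beta genes, summed to 6.71 to 9.83 CPM in Ogt-KD and 6.17 to 8.51 CPM in control libraries. Its 4 genes did not go 1 way. Tcrg-C1 was higher in all 3 Ogt-KD libraries, at 2.302, 2.99 and 3.197 CPM, against 1.69, 1.61 and 1.97 CPM in control libraries, and Tcrg-C2 likewise, at 1.71, 2.28 and 2.68 CPM against 0.639, 1.09 and 1.01 CPM (edgeR adjusted p = 0.605 and 0.526). Trdc, the constant gene of the delta chain, had 2.65, 2.23 and 3.72 CPM in Ogt-KD and 3.65, 3.99 and 5.35 CPM in control libraries, with overlap (edgeR log2 fold change -0.59, adjusted p = 0.681), and Sox13 was at most 0.24 CPM in Ogt-KD and 0.403 CPM in control libraries. Neutrophil markers (S100a8, S100a9, Ly6g and Mpo) summed to 78.7 to 193 CPM in Ogt-KD and 66.2 to 162 CPM in control libraries.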

How the data were processed

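RNA of splenic CD4+ T cells from 3 Ogt-KD and 3 control mice was sequenced after an Illumina TruSeq preparation, per the labels' protocols. Bowtie2 2.0.6, TopHat2 2.0.9 and mm9 are named per the submitters' processing notes, whereas the coordinates in the table match GRCm38; the counting tool and strand setting were not found in labels or headers. A read across a V-D-J joint has no continuous match in an unrearranged genome, so such reads may be lost. The authors deposited raw read counts, FPKM, their mean normalised signal per group, a log2 fold change, a p-value with its adjusted value, and gene length (an other unit, in bases).

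Counts were tested over all genes with edgeR 4.0.16 in R 4.3.3 (TMM, filterByExpr, robust quasi-likelihood F test, Benjamini-Hochberg, threshold 0.05); SE is the log2 fold change over the square root of F. The test was checked on simulated counts with larger changes than those of the members and the same dispersion for all genes. That check does not show how well the test finds changes as small as those of the members. DESeq2 1.42.0, limma-voom 3.58.1, no filter, a replicate block, scaling by the Trbv total and leaving out each library were alternatives. CPM uses TMM-scaled library sizes. A share is a segment's count over all counts of its class, with exact binomial (Clopper-Pearson) intervals; intervals and limits cover counting error only, since reads carry no molecular identifiers. Shares were compared with an exact permutation test over libraries. Sequences came from GENCODE M21 transcripts for all 53 members; for segments with several transcripts the first with a receptor biotype was taken. The search for recombination signals beside V segments was not run, since it needs a genome sequence.

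No pair of libraries was a copy of another (chi-squared per degree of freedom at least 10.8). The labels do not say that same-numbered mice were paired; deviations of same-numbered libraries correlated at 0.109, 0.347 and 0.523 across genes, all above 0.1, the minimum set for treating the numbers as pairs. Ogt-KD replicate 1 correlated more with control replicate 2 (0.267) than with control replicate 1, so the pairing is a weak reading of the data, not of the design. P-values set the difference between the groups against the spread between these libraries. Named were the constant and D segments, the 12 V and 4 J segments with the most counts, segments whose shares did not overlap, and the receptor complex and rearrangement lists. The members and lists were chosen with earlier results of these data known. Some marker lists are not reported here.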

Additional observations from a re-analysis of the deposited data

How the results depend on the processing

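The count of 0 members passing held in every alternative run, including DESeq2, limma-voom, the replicate block and each left-out library. The number of all genes passing was 1 in the main edgeR fit, 4 without the low count filter, 111 with DESeq2, 47 with the replicate block, 1 to 2 with 1 library left out and 35 without both replicate 3 libraries, a setting chosen after seeing the data. Median log2 fold changes of Trbv segments ran from -0.47 to -0.05 with 1 library left out, and stood at -0.22 with the replicate block and -0.07 with libraries scaled by the Trbv total, where the median of all genes was 0.16. V segments whose shares did not overlap numbered 6, and 6 to 12 with 1 library left out, highest without Ogt-KD replicate 3. J segments numbered 5, and 5 to 7. Leaving out a library cannot make separate groups overlap, so these counts could only stay or rise. Without both replicate 3 libraries there were 12 V and 8 J segments, where 2 libraries a group separate more easily. FPKM shares gave 5 V segments and summed subgroups 5. In the 3 same-numbered pairs, 7 of the 19 V and 6 of the 13 J segments differed in 1 direction. That is a count of signs, not a block model. The pairing is weak and no such share was taken over all genes, so the counts have no background. For the summed level of Trbv, Trbj and Trbc, Ogt-KD minus control was -136 CPM, and -266 to -34.6 CPM with 1 library left out. For the effective number of V segments it was -0.49, and -0.71 to -0.29; for the Trbc1 share -1.26 points, and -3.17 to -0.15. The difference in mean share changed sign with 1 library left out for 9 of 32 single segments (Trbv2, Trbv19, Trbv20, Trbv26, Trbv29, Trbj1-3, Trbj2-1, Trbj2-2 and Trbj2-4). All 9 had overlapping groups, since a segment without overlap cannot change sign in this way. For Trbv2, Ogt-KD minus control was 0.23 percentage points, and -0.45 to 0.66 with 1 library left out. Depth limits segments such as Trbv4, Trbv5 and Trbv21 to at most 32 counts a library, and 3 mice a group limit every share test.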
